A study of Homo sapiens with 9 samples.

Results

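Transcripts of the 10 alpha- and beta-tubulin genes TUBA1A, TUBA1B, TUBA1C, TUBA4A, TUBB, TUBB2A, TUBB2B, TUBB3, TUBB4B and TUBB6 were followed isotype by isotype in thyroid cancer cells treated with YK-4-279. They were taken by gene symbol from a table of 58735 genes, as 4 alpha and 6 beta genes. All 10 passed the filter on low counts in each comparison. KHM-5M, an established human thyroid cancer cell line, was exposed for 24 h to the vehicle DMSO, to 0.3 μM YK-4-279 or to 1 μM YK-4-279, with 3 samples in each group and no other agent or genetic change named in the labels. YK-4-279 is a small molecule made to block the protein contacts of ETS family transcription factors. mRNA was selected by its poly-A tail and sequenced, and all groups came from this 1 line.

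Alpha- and beta-tubulin form the heterodimer from which microtubules, and with them the mitotic spindle, are built. Each is encoded by several genes whose protein products, the isotypes, differ mainly near the carboxyl end. TUBB, TUBA1B, TUBA1C and TUBB4B are broadly expressed, whereas TUBB3 is known from neurons and from some tumours, and TUBB6 from many non-neuronal tissues. Cells also regulate tubulin mRNA by the pool of unassembled heterodimers. When free tubulin rises, as after drugs that take microtubules apart, TTC5 binds the first residues of a tubulin chain emerging from the ribosome and recruits, through SCAPER, the CCR4-NOT deadenylase, and the mRNA is degraded. Microtubules and free tubulin themselves were not analysed here.

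The residues that this control reads are encoded at the start of the coding sequence, so the first 30 coding bases of each member are shown, 5′ to 3′, from the spliced canonical transcript of GENCODE release 44 (GRCh38). Capitals mark the first 12 bases, the start codon and the next codons. The start codons lie in exons on chromosome 12 for TUBA1A, TUBA1B and TUBA1C, chromosome 2 for TUBA4A, chromosome 6 for TUBB, TUBB2A and TUBB2B, chromosome 16 for TUBB3, chromosome 9 for TUBB4B and chromosome 18 for TUBB6.
TUBA1A: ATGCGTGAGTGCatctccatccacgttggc
TUBA1B: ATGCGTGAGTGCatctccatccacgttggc
TUBA1C: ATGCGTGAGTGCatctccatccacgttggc
TUBA4A: ATGCGTGAATGCatctcagtccacgtgggg
TUBB: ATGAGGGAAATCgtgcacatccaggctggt
TUBB2A: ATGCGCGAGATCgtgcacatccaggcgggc
TUBB2B: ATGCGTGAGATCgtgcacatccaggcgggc
TUBB3: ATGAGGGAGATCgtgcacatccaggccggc
TUBB4B: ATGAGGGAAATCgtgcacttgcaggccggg
TUBB6: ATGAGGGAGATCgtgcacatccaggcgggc

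TUBA1A, TUBA1B and TUBA1C shared all 30 bases. TUBB and TUBB4B shared the first 12 bases (ATGAGGGAAATC), and so did TUBB3 with TUBB6 (ATGAGGGAGATC). These groups are of bases only. Translated, the first 12 bases gave 1 sequence for all 4 alpha genes and 1 for all 6 beta genes, so the differences in capitals within a family are synonymous. The part of this control in the values below was not tested.

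The members resembled each other along their whole coding sequence, which bears on how reads are assigned. Coding identity was 84.4 to 97.2% between alpha genes, 80.9 to 98.1% between beta genes and 51.9 to 54% between the families. Of the windows of 100 bases along the canonical transcript, 53.7% of those of TUBB2A also occurred in TUBB2B. TUBA1B shared 37.2% of its windows with other genes and TUBA1A 21.2%, against 12.3% for TUBA1C, 5.42% for TUBB, 3.01% for TUBB4B, 1.95% for TUBA4A and 0% for TUBB6. TUBB6 and TUBB values thus rest on nearly unshared sequence, and the 2 rows TUBB2A and TUBB2B are the least certain apart. TUBB3 shared 92.5% of its windows with ENSG00000198211, a row at 0 or 1 counts in each sample. The row that overlaps TUBB3 on the same strand is named AC092143.1 and had a mean of 0.333 counts. It may be this same gene under another name. Reads that fit TUBB3 and another gene may have been dropped. TUBB3 values may thus be too low, which was not tested. TUBA1A and TUBA1C overlap on opposite strands, as do TUBB6 and AFG3L2, TUBA4A and STK16, and TUBB2B and PSMG4. How the counting treated strand and reads with several matches is not given in the sources used here.

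Totals per sample ranged from 16903251 to 18238884 counts, and the 10 members together took 0.409 to 0.534% of them. Counts of single members per sample ran from 27 for TUBB3 to 39002 for TUBB. Of the 7 thyroid follicular markers, PAX8 alone exceeded 1 FPKM, while 4 of 5 epithelial markers exceeded it, so most of these thyroid differentiation genes were low. The fibroblast marker COL1A1 also exceeded it, and the summed fibroblast markers were 39.4 to 56.4 FPKM in DMSO and 34.2 to 39.96 FPKM at 1 μM. No C cell, leukocyte or endothelial marker reached that level, and the summed leukocyte markers were 0.234 to 0.663 FPKM in DMSO and 0.919 to 1.07 FPKM at 1 μM. The part of these fibroblast and leukocyte values in the results was not tested. The study's methods call the replicates of this assay biological but count fewer of them than the labels, and no source says that the labelled samples came from separate cultures, so p-values measure the spread between these samples, which may be partly technical. In bulk RNA, fewer cells with a transcript and less of it per cell cannot be told apart.

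Levels between genes were compared by the deposited FPKM values, which are scaled for gene length and depth. In DMSO, TUBB (ENSG00000196230, chr6:30720201-30725426, plus strand, GRCh38) stood highest at 646 ± 5.44 FPKM (SD, n = 3). TUBA1B (ENSG00000123416, chr12:49127782-49131397, minus strand) followed at 346 ± 11.5 FPKM and TUBB4B (ENSG00000188229, chr9:137241213-137243707, plus strand) at 283 ± 5.28 FPKM. These 3 genes carried most tubulin transcript in the cells. TUBA1C (ENSG00000167553, chr12:49188736-49274603, plus strand) was at 104.5 ± 6.29 FPKM and TUBB6 (ENSG00000176014, chr18:12307669-12344320, plus strand) at 88.8 ± 2.49 FPKM. TUBA1A (ENSG00000167552, chr12:49184796-49189324, minus strand), an isotype prominent in the developing nervous system, was at 45.2 ± 1.78 FPKM.

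The remaining 4 members were low. TUBB2A (ENSG00000137267, chr6:3153669-3157526, minus strand) at 30.03 ± 3.75 FPKM and its close copy TUBB2B (ENSG00000137285, chr6:3224261-3231730, minus strand) at 25.6 ± 0.451 FPKM overlapped in their sample ranges and were the only neighbours in the order that did. TUBA4A (ENSG00000127824, chr2:219249711-219278170, minus strand) had 14.9 ± 1.95 FPKM. TUBB3 (ENSG00000258947, chr16:89921392-89938761, plus strand), the neuronal isotype, had 0.630 ± 0.0898 FPKM. Of 5 neuronal markers, SNAP25 alone averaged at least 1 FPKM over the samples, and DCX was at 0 in all of them. The TUBB3 level may be too low if reads shared with an overlapping row were dropped. The order between members of similar level depended on the length used. With the canonical transcript length, an alternative chosen after seeing the data, TUBB6 stood above TUBA1C, and TUBA4A above TUBB2B, whose ranges then overlapped.

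**Figure D1:**
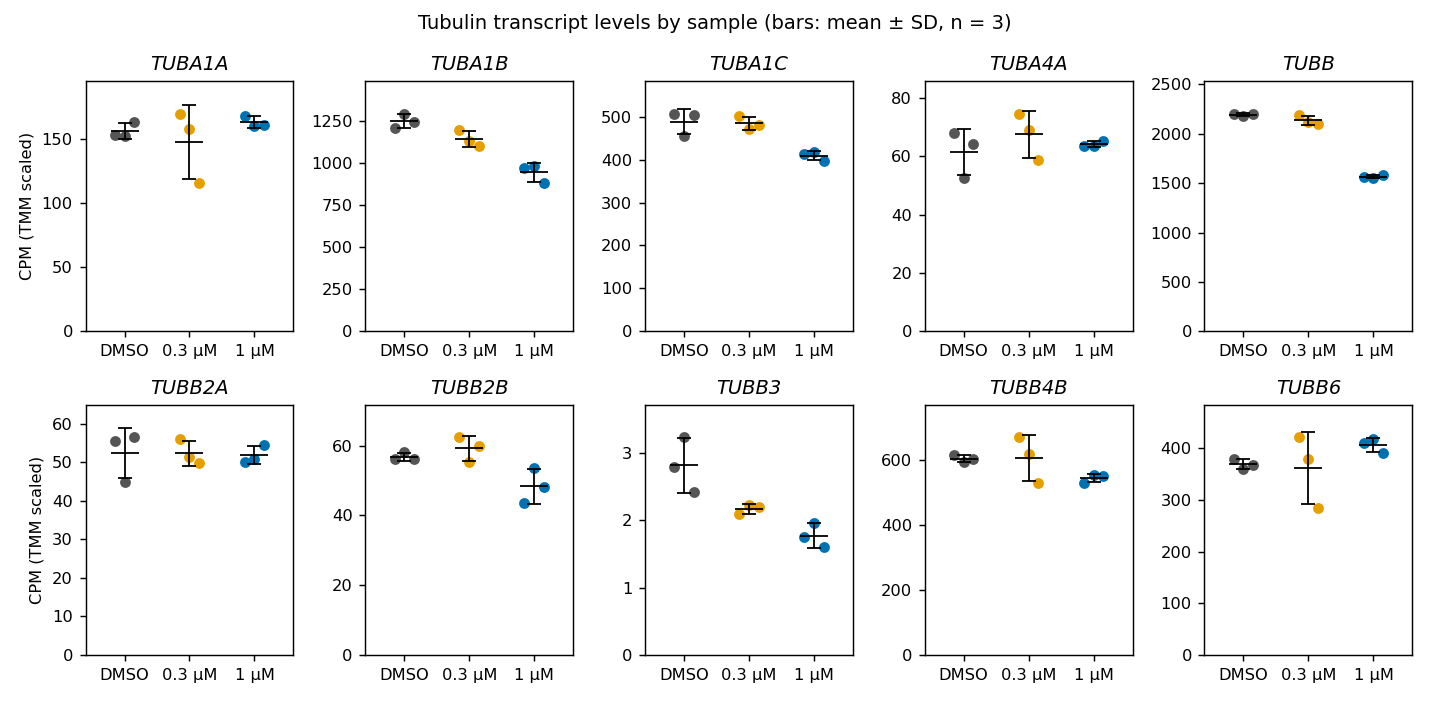
CPM (counts scaled to a common library size by TMM) of each tubulin gene on its own axis from 0, with 1 point per sample, for DMSO, 0.3 μM and 1 μM YK-4-279. Black bars give the mean ± SD of 3 samples; the 3 points of TUBB at 1 μM lie at 1556 to 1580 CPM, below all DMSO points at 2176 to 2204 CPM.

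The first comparison asked whether the lower dose moved any tubulin gene. At 0.3 μM against DMSO, 0 of 10 members passed an adjusted p of 0.05 by edgeR (quasi-likelihood test, p adjusted by Benjamini-Hochberg over 15762 genes), where 0% of all genes did. DESeq2 also called 0 members. At an unadjusted p under 0.05 the test gave 1 member, TUBA1B, beside 3.77% of all genes. The median log2 fold change was -0.02 over the members and 0.00 over all genes.

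Below, CPM are counts scaled by TMM to a common library size and serve for one gene across samples. TUBA1B measured 1208, 1293 and 1245 CPM in DMSO and 1198, 1133 and 1104 CPM at 0.3 μM, so the groups did not overlap. Its log2 difference was -0.13 ± 0.06 (SE; adjusted p = 0.995, edgeR), with a 95% interval of -0.25 to -0.01. The treated samples lay below DMSO by a narrow margin in this abundant alpha gene. TUBB3 was likewise lower without overlap, at 37, 40 and 38 counts after 48, 58 and 41 in DMSO, with a log2 difference of -0.38 ± 0.23 (adjusted p = 0.995, edgeR). Treated samples lay wholly below DMSO for these 2 members, beside 4.56% of all genes, and wholly above it for 0 members, beside 3.82%. TUBB, the most abundant member, measured 2204, 2176 and 2201 CPM in DMSO and 2189, 2119 and 2104 CPM at 0.3 μM, with overlap. Its interval, -9.67 to 4.90% of the DMSO level, excluded a fall of the size measured at 1 μM below.

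Replicate 3 at 0.3 μM stood below the other samples for several members. TUBB6 measured 285 CPM there, against 421 and 379.7 CPM in replicates 1 and 2. TUBA1A measured 115 CPM there, against 169.6 and 158 CPM. TUBB4B was also lowest in this sample, at 531 CPM against 670.5 and 618 CPM, whereas TUBA1C, at 480.3 CPM, lay between its other values of 502 and 473 CPM. Without that sample the log2 difference from DMSO was 0.12 for TUBB6 in place of -0.03, and 0.07 for TUBA1A in place of -0.08, and none of these values passed the test.

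The other members overlapped DMSO at 0.3 μM. Their intervals, from the fit without the replicate block, show how large a change could have gone unseen in that fit. TUBA1C had an interval of -9.78 to 8.76% of the DMSO level and TUBB4B one of -10.1 to 11.9%. Those of the less abundant TUBA4A (74.6, 68.9 and 58.8 CPM at 0.3 μM; interval -5.78 to 27.6%) and TUBB2A (56.1, 51.4 and 49.8 CPM; -13.0 to 15.1%) were wider. TUBB2B measured 62.4, 55.4 and 59.9 CPM at 0.3 μM, with an interval of -7.09 to 16.9%. For comparison, a fall of TUBA1C as large as that at 1 μM lay outside its interval.

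The second comparison asked the same of the higher dose. At 1 μM against DMSO, TUBB, TUBA1B and TUBA1C fell, and no member rose. These 3 of 10 calls stand beside 17.6% of 15617 genes called, 9.95% lower and 7.67% higher. Among genes of at least 50 CPM, a level that 9 members exceeded, 22.7% were called. The median log2 fold change was -0.20 over the members and -0.01 over all genes. None of the 3 falls reached 1.5-fold, beside 3.91% of protein-coding genes that passed the test with at least that change.

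TUBB, which encodes the main beta isotype, measured 1559, 1556 and 1580 CPM at 1 μM, from 28541, 26906 and 26660 counts. All 3 values lay far below the 6 values of the other groups, of which the lowest was 2104 CPM. The log2 fold change from DMSO was -0.49 ± 0.05 (adjusted p = 1.90e-05, edgeR quasi-likelihood test), or -29.0% with an interval of -33.8 to -23.8%. TUBB ranked 42 of 15617 genes by p. Leaving out any 1 sample gave -0.50 to -0.48 for this gene, all passing the test.

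TUBA1B, the main alpha isotype, measured 972, 985 and 882 CPM at 1 μM, below every DMSO and 0.3 μM sample. It fell by 0.41 on the log2 scale (SE 0.06, adjusted p = 0.000314, edgeR), a change of -24.6% with an interval of -30.6 to -18.0%. TUBA1C, a further broadly expressed alpha isotype, measured 507, 456 and 504 CPM in DMSO and 413, 419 and 398 CPM at 1 μM. Its groups did not overlap, and it fell by 0.26 (SE 0.06, adjusted p = 0.00667, edgeR), a change of -16.6% with an interval of -23.4 to -9.16%.

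TUBA1A measured 153, 152 and 163 CPM in DMSO and 168, 159.9 and 161 CPM at 1 μM. Its groups overlapped, with a log2 difference of 0.06 ± 0.06 (adjusted p = 0.534, edgeR) and an interval of -4.32 to 12.9%, which excluded a fall as large as that of TUBA1B. TUBA4A, the alpha gene least like the others, measured 67.8, 52.6 and 64.0 CPM in DMSO and 63.4, 63.6 and 65.4 CPM at 1 μM. The groups overlapped here too, and the difference of 0.05 ± 0.09 (adjusted p = 0.709, edgeR) had an interval of -8.48 to 17.8%.

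Among the other beta genes, 3 were lower at 1 μM in all samples without passing the test. TUBB4B measured 616, 594 and 603 CPM in DMSO and 529.7, 553 and 552 CPM at 1 μM, with a log2 difference of -0.16 ± 0.05 (adjusted p = 0.0503, edgeR). TUBB2B measured 56.04, 58.0 and 56.3 CPM and then 43.5, 53.5 and 48.1 CPM, with -0.24 ± 0.08 (adjusted p = 0.0518, edgeR). Both sat at the threshold, and the choice of samples or method decided the call. DESeq2 called TUBB4B (adjusted p = 0.0474) in addition to TUBB, TUBA1B and TUBA1C, and did not call TUBB2B (adjusted p = 0.0905). TUBB4B passed without DMSO replicate 2 (adjusted p = 0.0319, over a range of 0.0277 to 0.179 across alternatives), and TUBB2B without 1 μM replicate 2 (adjusted p = 0.0254, range 0.0201 to 0.226). TUBB3 had 32, 34 and 27 counts at 1 μM, below all DMSO samples, and the difference of -0.68 ± 0.24 (adjusted p = 0.0666, edgeR) had the widest interval of the members, -56.2 to -10.6%.

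TUBB6 was the member whose treated samples all lay above DMSO. It measured 379.6, 359.6 and 368 CPM in DMSO and 409.9, 417 and 391 CPM at 1 μM, with a log2 difference of 0.13 ± 0.05 (adjusted p = 0.108, edgeR) and an interval of 1.12 to 18.5%. TUBB2A measured 55.7, 44.9 and 56.5 CPM in DMSO and 50.3, 50.9 and 54.5 CPM at 1 μM, with overlap and a difference of -0.02 ± 0.09 (adjusted p = 0.907, edgeR; interval -13.3 to 12.3%). In all, 7 members had groups that did not overlap, beside 36.6% of all genes, with 6 lower beside 17.7% and TUBB6 higher beside 18.9%. By unadjusted p under 0.05 the same 7 passed, beside 31.9%. Once each sample's trend with GC content was taken out, 6 members passed, TUBB4B and TUBB2B lower and TUBB6 higher in addition to the 3 above (adjusted p = 0.0277, 0.0302 and 0.0241, where alternatives for TUBB6 spanned 0.0241 to 0.339).

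**Figure D2:**
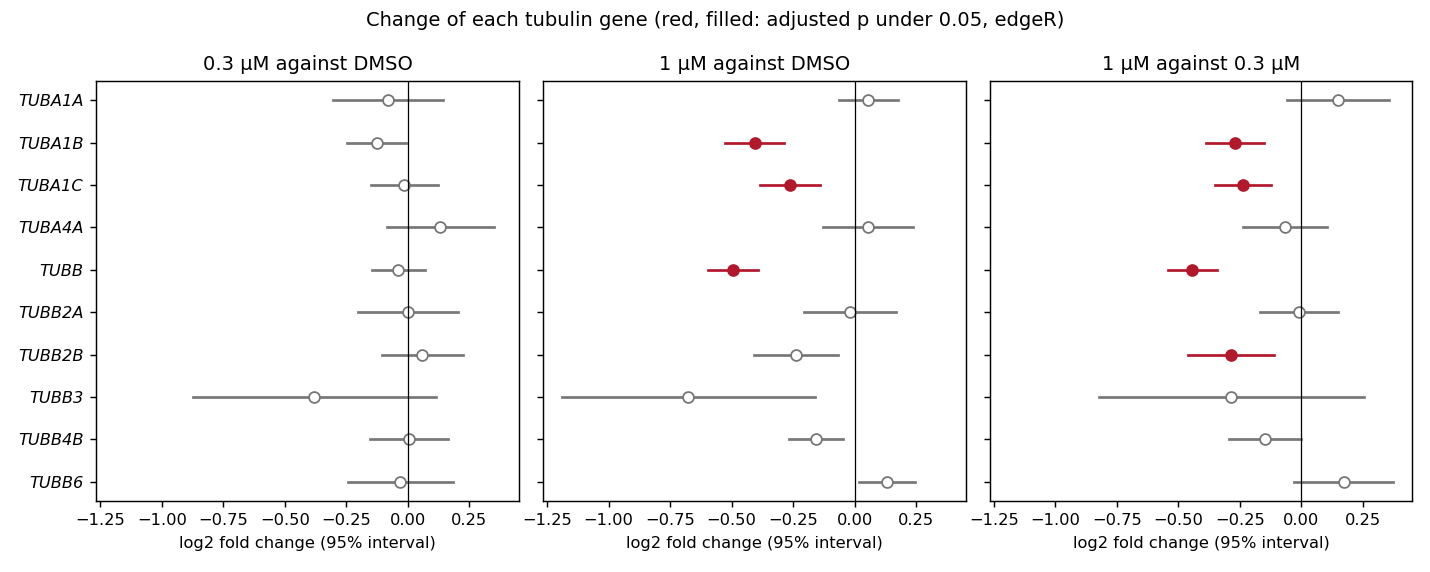
Log2 fold change of each tubulin gene with its 95% interval in the 3 comparisons, from edgeR; red filled points passed an adjusted p of 0.05. No point is red at 0.3 μM against DMSO, 3 are at 1 μM against DMSO and 4 at 1 μM against 0.3 μM, all of them left of 0.

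The third comparison set the doses against each other. It shares its samples with the first and second, so its values stand beside those and add no separate evidence. At 1 μM against 0.3 μM, 4 of 10 members fell, beside 12.6% of 15583 genes called and 6.75% called lower. TUBB was lower by -0.44 ± 0.05 on the log2 scale (adjusted p = 2.88e-05), TUBA1B by -0.27 ± 0.06 (adjusted p = 0.00500), TUBA1C by -0.24 ± 0.05 (adjusted p = 0.00895) and TUBB2B by -0.29 ± 0.08 (adjusted p = 0.0323), all by edgeR's test. None of these reached 1.5-fold, beside 2.37% of protein-coding genes. The fall of TUBB was thus present between the doses and not detectable between DMSO and 0.3 μM. TUBA1C lost its call without 1 μM replicate 3 (adjusted p = 0.0634, alternatives 0.000523 to 0.0634). TUBB2B lost its call without 0.3 μM replicate 1, 1 μM replicate 1 or 1 μM replicate 3 (adjusted p = 0.0959, 0.159 and 0.107, alternatives 0.0141 to 0.159). TUBB4B passed only without 0.3 μM replicate 3, at -0.24 (adjusted p = 0.00802, alternatives 0.00802 to 0.566), and TUBB6 passed at 0.30 without 0.3 μM replicate 1 (adjusted p = 0.0456, alternatives 0.0452 to 0.869).

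Because near-identical rows may exchange reads, paralogue counts were also summed and tested in the same fit. At 1 μM against DMSO the sum of TUBA1A, TUBA1B and TUBA1C fell by 0.32 on the log2 scale (adjusted p = 0.000789, edgeR). The sum of TUBB2A and TUBB2B differed by -0.13 (adjusted p = 0.193, edgeR), between the values of its parts. TUBB with its pseudogene TUBBP1, a sum chosen after seeing the data, gave -0.49 (adjusted p = 1.89e-05, edgeR), like TUBB alone.

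Summed over isotypes, both families were lower at 1 μM. Total alpha-tubulin FPKM was 504, 512 and 516 in DMSO, 506, 478 and 456 at 0.3 μM and 424, 428 and 394.5 at 1 μM. Total beta-tubulin FPKM was 1088, 1057 and 1079 in DMSO, 1121, 1063 and 993 at 0.3 μM, and 859.9, 879.6 and 878 at 1 μM. In both families every 1 μM sample lay below every other sample, by 18.6% of the DMSO mean for alpha and 18.8% for beta. The ratio of alpha to beta FPKM was 0.475 ± 0.0107 in DMSO, 0.454 ± 0.00483 at 0.3 μM and 0.476 ± 0.0234 at 1 μM, so it was lower in all 0.3 μM samples than in DMSO and overlapped DMSO at 1 μM. No test was run on these sums. The totals, their ratio and the shares below rest on the deposited gene lengths. These exceed the canonical transcript by more for TUBA1B (3574 against 1627 bases) than for TUBB (3359 against 2515 bases). The ratio thus depends on the length used and does not give the relative amounts of alpha and beta mRNA.

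The make-up within each family differed at 1 μM. TUBB supplied 60.2% ± 0.405 of beta-tubulin FPKM in DMSO, 59.6% ± 2.53 at 0.3 μM and 53.2% ± 0.584 at 1 μM. The shares of TUBB4B (26.4% ± 0.172 in DMSO, 29.5% ± 0.390 at 1 μM) and TUBB6 (8.26% ± 0.120 and 11.3% ± 0.421) were higher at 1 μM than in any DMSO sample. Among alpha genes, TUBA1B went from 67.8% ± 1.88 to 63.5% ± 1.03 and TUBA1A from 8.85% ± 0.281 to 11.5% ± 0.494, again without overlap. A share rises when its partners fall, so the larger shares of TUBB4B, TUBA1A and TUBB6 do not show that these transcripts increased.

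**Figure D3:**
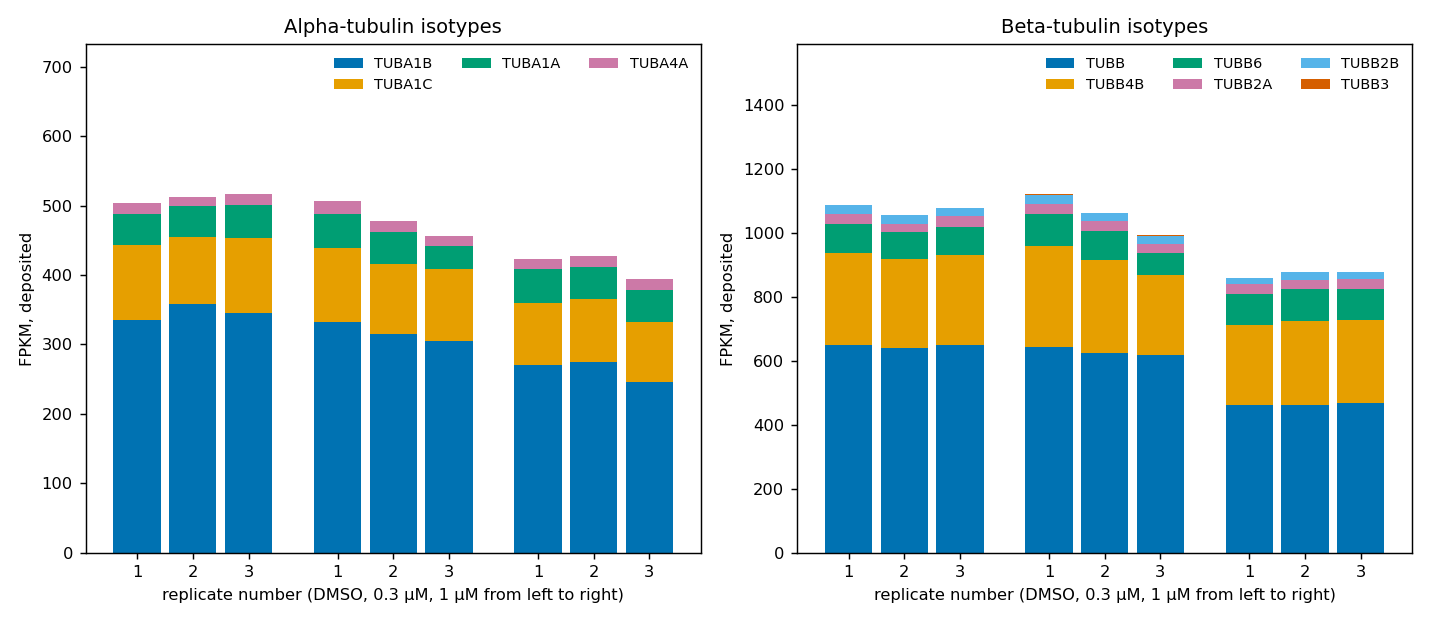
FPKM of the alpha (left) and beta (right) isotypes stacked by sample, with 3 bars for each of DMSO, 0.3 μM and 1 μM from left to right. The lowest segments, TUBA1B and TUBB, are shorter in the 1 μM bars; TUBB3, under 1 FPKM, is too thin to see.

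Ratios within a sample do not depend on library scaling. For 4 pairs, each chosen after its values had been seen to set a member that fell beside one that did not pass the test, they are given as a description with no test. TUBB over TUBB6 was 5.81, 6.05 and 5.98 in DMSO, 5.20, 5.58 and 7.38 at 0.3 μM, and 3.80, 3.73 and 4.04 at 1 μM. TUBB over TUBB4B averaged 3.63 ± 0.0441 in DMSO and 2.87 ± 0.0656 at 1 μM. TUBA1B over TUBA1A averaged 8.01 ± 0.438 in DMSO and 5.81 ± 0.340 at 1 μM. TUBA1B over TUBA4A went from 20.6 ± 3.55 to 14.8 ± 1.11. Each ratio was lower in all 1 μM samples than in all other samples, as the choice of pairs would give.

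Of 48 further rows whose symbols begin with TUBA or TUBB, 23 had no counts and 6 averaged at least 1 CPM. TUBA3C, an alpha gene of high similarity to the TUBA1 group, had 1003, 1064 and 1031 counts in DMSO and 858, 852 and 806 at 1 μM, and fell by 0.32 on the log2 scale (SE 0.06, adjusted p = 0.00406, edgeR). TUBBP1, a processed pseudogene of TUBB, had 300, 303 and 323 counts in DMSO and 179, 215 and 213 at 1 μM, and fell by 0.63 (SE 0.12, adjusted p = 0.00247, edgeR). Its row held 0.627 to 0.868 counts per 100 of TUBB in every sample, and the part of shared reads in its fall was not tested. TUBB4A, TUBAP2, TUBB2BP1 and TUBA3FP did not pass, with log2 differences of -0.17, -0.18, 0.13 and -0.59.

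The genes around tubulin were described by list at 1 μM against DMSO, beside the 17.6% called among all genes. Of the 8 tested genes among other tubulins, 3 fell, namely TUBG1 (-0.24, adjusted p = 0.0362) and TUBG2 (-0.28, adjusted p = 0.0476), which encode the gamma-tubulins that nucleate microtubules, and TUBA3C, by edgeR's test. Of 9 partners in the gamma-tubulin ring complex, TUBGCP6 (-0.54, adjusted p = 0.000195) and TUBGCP3 (-0.24, adjusted p = 0.0195) fell. These counts depended on single samples. The first dropped to 1 when any sample other than DMSO replicate 2 was left out, and the second to 1 without DMSO replicate 3, 1 μM replicate 2 or 1 μM replicate 3. The list medians were -0.18 and -0.08, against -0.01 over all genes.

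The machinery of tubulin mRNA decay gave 1 call at 1 μM. TTC5, the factor that binds the nascent chain, had 302, 365 and 309 counts in DMSO and 311, 317 and 306 at 1 μM, a log2 difference of -0.08 ± 0.10 (adjusted p = 0.605, edgeR). SCAPER, its adaptor, had -0.10 ± 0.09 (adjusted p = 0.448, edgeR), and CNOT11, the CCR4-NOT subunit to which SCAPER binds, 0.08 ± 0.07 (adjusted p = 0.430, edgeR). Of the 13 genes of this list, CNOT2, a scaffold subunit, fell by 0.22 (adjusted p = 0.0304, edgeR). That call was lost in 5 of the 6 fits that each left out a sample, all but the one without DMSO replicate 1, and in DESeq2. The list median was 0.02.

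Tubulin chains fold in the CCT chaperonin, to which prefoldin delivers them, and the tubulin cofactors then join alpha to beta. Of 21 tested rows of this folding list, 4 rose and none fell, with a median of 0.06. TBCC, the cofactor that triggers release of the finished heterodimer, had 301, 290 and 337 counts in DMSO and 474, 431 and 425 at 1 μM, and rose by 0.50 ± 0.09 (adjusted p = 0.00268, edgeR). The chaperonin subunits CCT2 (0.20, adjusted p = 0.0204), TCP1 (0.19, adjusted p = 0.0307) and CCT5 (0.17, adjusted p = 0.0421) rose by less in edgeR's test. The count fell to 1 when any sample but DMSO replicate 2 was left out.

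Of 20 tested enzymes that modify tubulin, 3 fell and none rose, with a median of -0.09. These were TTLL3, which adds glycine to tubulin (-0.83, adjusted p = 0.000977), KIAA0895L, a tyrosine-removing carboxypeptidase (-0.72, adjusted p = 0.000251), and ATAT1, which acetylates alpha-tubulin (-0.35, adjusted p = 0.0328), by edgeR's test. The G2/M list, included because dividing cells build spindles, moved in both directions, with a median of -0.02. Of its 16 genes, CCNB1 (0.21) and AURKA (0.23) rose, while TOP2A (-0.55), CDK1 (-0.68), CENPF (-0.81), AURKB (-0.54) and UBE2C (-0.46) fell. CENPF was 2994 and 3174 counts in 1 μM replicates 1 and 3 and 6438 in replicate 2, which overlapped DMSO. The part of cell cycle state in the tubulin values was not tested.

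**Figure D4:**
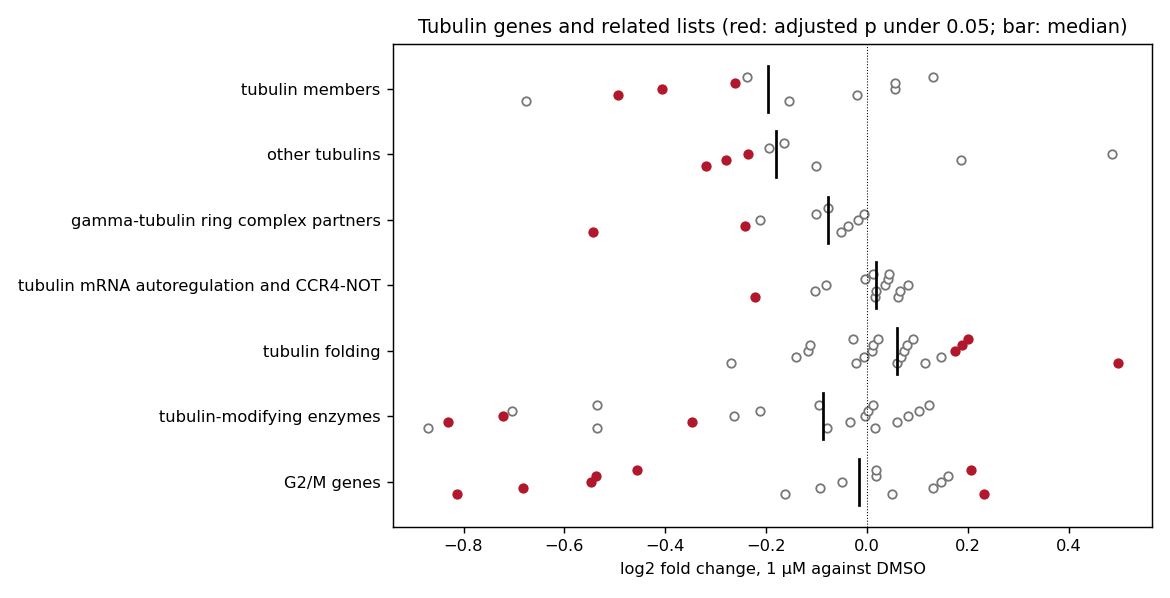
Log2 fold change at 1 μM against DMSO of the 10 tubulin members and of each tested gene in 6 related lists, 1 point per gene; red points passed an adjusted p of 0.05 in edgeR and black bars mark list medians. The members' median is -0.20, that of the folding list 0.06.

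The genes whose 9 values, each relative to the DMSO mean, lay nearest to those of TUBB were sought among 9686 genes of at least 10 CPM outside the TUBA and TUBB names. By root mean square difference on the log2 scale over the 9 samples, these were CYTH2 (0.0319), CHEK2 (0.0420), AURKB (0.0441), RTTN (0.0483) and KIZ (0.0515). Their own log2 fold changes at 1 μM ran from -0.54 for KIZ to -0.44 for RTTN, near that of TUBB as the choice of genes would give. Among the members, TUBA1B was the nearest to TUBB (0.0903), followed by TUBA1C (0.142), and TUBB6 the farthest (0.383).

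ETS factors, at which YK-4-279 was aimed, bind DNA around a GGAA core, so promoters of 300 bases (250 before and 50 after the RefSeq gene start, GRCh38.p14) were searched on both strands. All 10 members had a promoter among 35116. The letters CCGGAAG, a narrower string than the GGAA core, occurred in 0 of 10 members and in 10.3% of all promoters. Other letters around the core were not searched, so this count does not show that the members lack ETS sites. The CCAAT letters, bound by the factor NF-Y in many cell cycle genes, occurred in 5 members (TUBB, TUBB2B, TUBB4B, TUBA1A and TUBA1C) and in 34.6% of all. GGGCGG, bound by Sp1, occurred in 5 members (TUBB, TUBA1B, TUBA4A, TUBB2A and TUBB2B) and in 45% of all. A match here is a match of letters only. The 250 bases before the RefSeq start lay wholly inside the gene as the deposited table bounds it for 4 members (TUBA4A, TUBB2B, TUBA1C and TUBB3) and partly inside for 4 others, TUBB and TUBA1B among them, so other starts of these genes were not searched. For TUBA1C they ended 37257 bases before the start codon. The 250 upstream bases are shown for TUBB (chr6:30720102-30720351, plus strand) and TUBA1B (chr12:49131396-49131645, minus strand), the members that fell most, with CCAAT and GGGCGG, on either strand, in capitals. The TUBB window has 151 bases inside the gene as given above and that of TUBA1B 2 bases, and both end before the start codon.
TUBB: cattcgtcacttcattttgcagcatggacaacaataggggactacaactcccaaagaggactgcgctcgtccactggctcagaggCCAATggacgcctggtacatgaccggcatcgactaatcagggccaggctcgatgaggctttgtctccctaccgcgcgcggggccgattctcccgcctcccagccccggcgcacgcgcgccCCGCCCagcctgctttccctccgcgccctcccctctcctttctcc
TUBA1B: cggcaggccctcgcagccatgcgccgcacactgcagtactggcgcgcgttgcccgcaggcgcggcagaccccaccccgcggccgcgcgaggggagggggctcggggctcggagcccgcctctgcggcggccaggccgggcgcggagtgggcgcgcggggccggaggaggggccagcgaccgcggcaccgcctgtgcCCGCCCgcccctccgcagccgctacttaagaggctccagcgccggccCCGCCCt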

How the data were processed

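Per the labels, RNA of KHM-5M cells was converted to poly-A selected libraries. The authors aligned reads to GRCh38 with HISAT2 2.0.5 and, per the labels, obtained gene counts with featureCounts 1.5.0-p3; the study's methods name HTseq for this step. Those methods also name 2 biological replicates per condition and a stranded kit, where the labels give 3 samples and a kit not called stranded. The deposited table holds raw counts and FPKM values per sample, used here, and columns from the authors' DESeq2 runs (group means, fold changes, p-values), not used. All rows name a gene.

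Counts were fitted in edgeR 4.0.16 (R 4.3.3; filterByExpr with a minimum count of 10, TMM scaling, quasi-likelihood test) in each pair of groups, with Benjamini-Hochberg adjustment over all genes tested and a threshold of 0.05. Scripts were tested on simulated data. CPM are counts scaled by TMM to a common library size, and FPKM were compared as deposited. Alternatives were DESeq2 1.42.0, RLE scaling, no filter, all samples in 1 fit, the replicate number as a block, removal of each sample's trend with gene length or GC content, summed paralogues, a 1.5-fold cutoff, and each sample left out. The numbers 1 to 3 are in the labels with nothing saying what they mark. For 0.3 μM against DMSO, deviations of same-numbered samples from their group means correlated at 0.102 to 0.319 in all 3 pairs. By this rule the numbers were taken to pair these samples, and with the block 0 members were called, as without. The errors and intervals printed for this comparison come from the fit without the block. With it the SE was smaller for all members (TUBB6 0.0766 in place of 0.101) except TUBB3 (0.243 in place of 0.233).

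The members and gene lists were chosen with earlier results of these data known. Named were all members, the 5 genes most like TUBB, and other TUBA or TUBB rows of at least 1 CPM. From the lists, genes called at 1 μM against DMSO with at least 1 CPM were named, up to 4 rises and 4 falls per list. UBE2C, a further fall of the G2/M list, was named beyond that limit. TTC5, SCAPER and CNOT11 were named in any case. Depth was 16903251 to 18238884 counts per sample. Sequences came from GENCODE release 44 and RefSeq promoters, and coordinates of genes are those of the deposited table.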

Additional observations from a re-analysis of the deposited data

How the results depend on the processing

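At 1 μM against DMSO, 6 members were called in place of 3 after the GC trend was removed, and 6 with the replicate block and that removal together, in both cases 1 higher and 5 lower where the main split was 0 and 3. A 1.5-fold cutoff left 0 in this comparison and 0 at 1 μM against 0.3 μM, where summed paralogue rows gave 2 of 7 features in place of 4 of 10. With each sample left out in turn, 3 to 4 members were called at 1 μM against DMSO, 2 to 5 at 1 μM against 0.3 μM (2 without 1 μM replicate 3) and 0 to 0 at 0.3 μM against DMSO. The replicate block gave 0, 3 and 4 members called, as the fits without it. At 1 μM same-numbered samples did not deviate together (-0.190 to 0.0901 against DMSO and -0.103 to -0.0251 against 0.3 μM), so no pairing was taken there. Correlations over so few samples cannot show whether these samples shared a batch. By canonical transcript length, 6 of 10 members kept their rank. Of 462 alternative values of single members, 445 kept their side of the threshold, 4 lost a call, 13 gained one and 0 called values reversed. Of the 445, 28 changed sign, in values called neither way. On the adjusted p alone, TUBB and TUBA1B passed in every alternative that tested their own rows at 1 μM against either group, with adjusted p up to 0.000765 and 0.0422. TUBA1C passed in every one against DMSO, with adjusted p up to 0.0463.

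Among the lists at 1 μM against DMSO, the replicate block gave 1 called gene of other tubulins in place of 3, 0 of the decay machinery in place of 1 and 1 of the folding list in place of 4. The decay list also gave 0 in DESeq2, without the count filter and with the length trend removed. With each sample left out, called genes numbered 1 to 4 for other tubulins, 1 to 2 for the gamma-tubulin ring complex, 0 to 1 for decay, 1 to 5 for folding, 2 to 3 for modifying enzymes and 5 to 9 for G2/M. The causes of these shifts were not tested.

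TUBB3 had the fewest counts of the members, 27 to 58 per sample. Whether depth, low expression or dropped shared reads set this was not tested. Intervals cover the spread among 3 samples of a single cell line at a single time point.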
